A study of Mus musculus with 39 samples.

Results

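The endothelium of the pup brain was compared between mice that had lost Smad4 in endothelial cells and mice that kept it, without antibody treatment. The comparison took every untreated library labelled for the Smad4 line, which is 10 of the 39 libraries of the series, and covered all genes. 5 libraries came from mutants (genotype Smad4f/f; Cdh5-CreERT2) and 5 from wild types (Smad4f/f), all C57BL/6 pups taken on postnatal day 7. Per the labels' protocol, newborn pups of the Smad4 line received 300 µg tamoxifen on postnatal days 1 to 3. Cdh5-CreERT2 is a Cre recombinase that is driven by the promoter of the endothelial cadherin gene and becomes active with tamoxifen. Both groups carried floxed Smad4, every mutant carried Cre and no wild type did, so the loss of Smad4 and the activity of Cre cannot be told apart. Cells were released from whole brain by enzymatic digestion and captured on beads coated with an antibody to PECAM, an adhesion molecule of endothelial cells. The labels do not say whether a library came from 1 pup or several, nor from which litters, so p-values measure the spread between these libraries.

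Smad4 is the SMAD that BMP and TGF-β signalling share. Ligands bring type I and type II receptors together, the receptors phosphorylate SMAD1, SMAD5 and SMAD9 on the BMP branch or SMAD2 and SMAD3 on the TGF-β branch, and these enter the nucleus in complexes with SMAD4. In vessels the BMP branch is known for its ligand BMP9, its receptor ALK1 and its co-receptor endoglin, and mutations in the genes of this branch cause hereditary haemorrhagic telangiectasia, in which arteries and veins join without capillaries between them.

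The values are normalized expression values per gene and library, and library order within a group is that of the file's columns. The fourth and the fifth library of each group carry the code L146 in their column names, and the first 3 of each group carry none. Depth inferred from the spacing of low values was 20.72 to 27.58 M fragments (1 M is 1e+06) in the 4 coded libraries and 11.09 to 15.37 M in the other 6, and 16535 to 17365 genes had a value above 0. Xist and Ddx3y, which mark female and male tissue, were high in 2 and 3 libraries of each group. All 10 endothelial markers had values high enough to be tested, with a summed level of 363763 to 439362 in the wild types and 387432 to 482772 in the mutants. By the threshold given below, 2 of the 10 rose and 1 fell, with log2 fold changes of -0.65 to 0.39 over the 10. Pecam1 itself, the antigen of the beads, was higher in the mutants, at 37237 to 44115 in the wild types and 49152 to 63341 in the mutants (log2 fold change 0.39 ± 0.09, adjusted p = 0.00655).

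Smad4 (chr18:73639009-73703780 in mm10, minus strand) held 5674, 5862, 5258, 5903 and 5822 in the 5 wild types and 1720.3, 1676, 1915, 1916 and 1872 in the 5 mutants. The groups did not overlap. The log2 fold change of mutant over wild type was -1.65 ± 0.06 (SE, n = 5 per group). Throughout, fold changes are on the scale of log2 of the value plus 2, are given ± SE for mutant over wild type, and come from limma with Benjamini-Hochberg adjustment over all genes. A gene is said to have risen or fallen where its adjusted p was under 0.05.

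Of 14012 genes tested, 4620 passed that threshold (33.0%), of which 2409 rose (17.2% of genes tested) and 2211 fell (15.8%). The falls were the larger changes, with a median size of 0.69 log2 against 0.38 for the rises, and they lay in genes of lower level, with a median value of 444.4 against 1940.8. At least 2-fold falls numbered 751 and at least 2-fold rises 281, whereas at least 4-fold changes were about as many each way, at 57 rises and 51 falls. The median over all genes was -0.006. The 2 groups did not overlap for 3191 genes (22.8%). Of the calls, 52.1% were rises with the values as deposited and 37.2% after division of every library by its sum, which moved the median of all genes to -0.086. All 2409 rises and 2210 of 2211 falls had the same sign among the libraries with the code and among those without it. The calls came from these same libraries, so agreement of sign was largely set by the selection. Over all 14012 genes tested, called or not, 11303 had the same sign in both. Fewer cells of a type and less RNA per cell cannot be told apart in these bulk libraries.

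**Figure D1:**
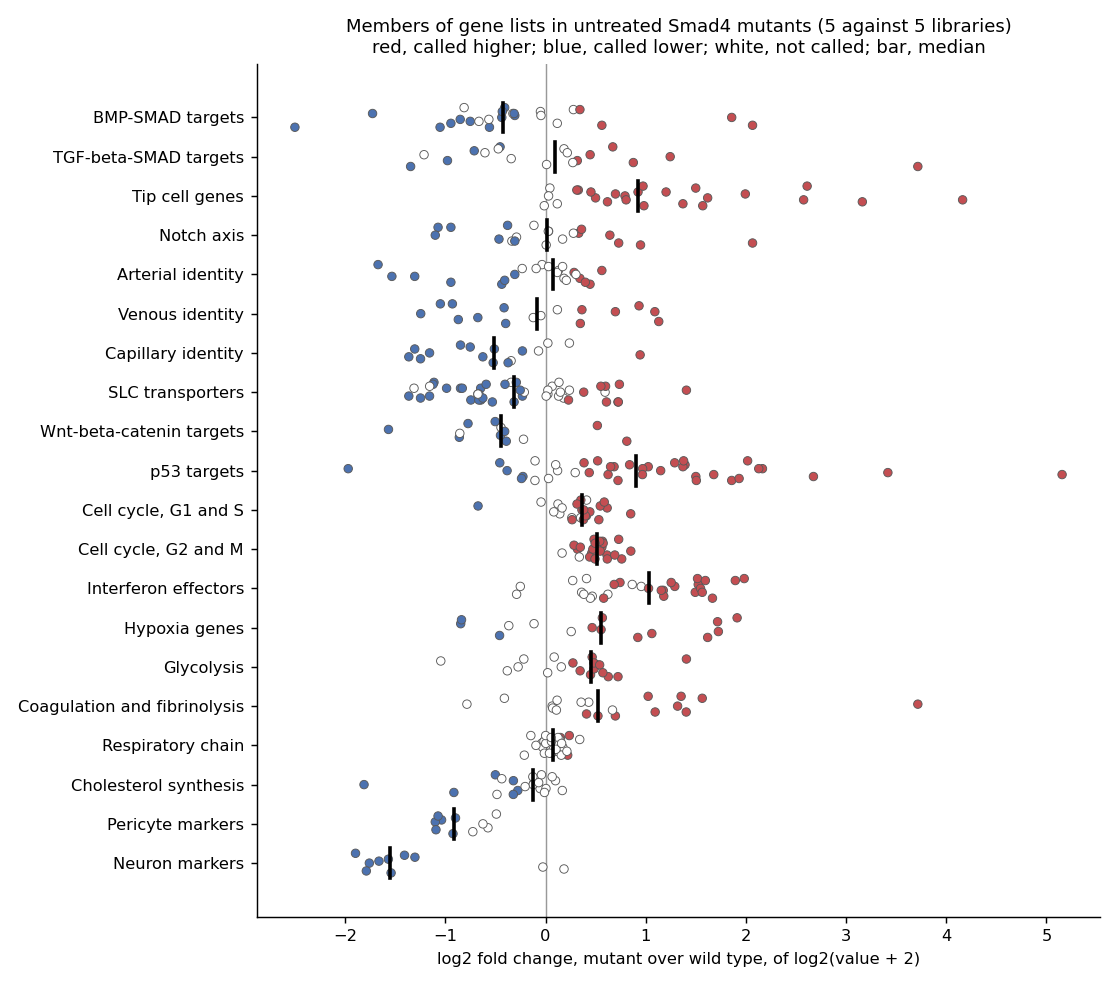
Log2 fold changes (mutant over wild type) of the tested members of each gene list, 1 point per gene, with called rises in red, called falls in blue, other genes in white and the list median as a bar. The capillary, neuronal and pericyte lists lie mostly below 0, and the tip cell and p53 lists mostly above it.

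The BMP and TGF-β pathway itself was examined first, by role. Of 40 tested members, 10 rose and 10 fell, and the median of -0.006 was that of all genes. Among the ligands, Tgfb2 held 3433, 3249, 3547, 2811 and 3198 in the wild types and 1309, 1158, 1279.7, 1316 and 1143 in the mutants. Every mutant lay far below every wild type, and the log2 fold change was -1.38 ± 0.07 (adjusted p = 2.91e-07). Its relative Tgfb1 moved the other way, with 3515 to 4002 in the wild types and 5319, 5927, 6697, 6948 and 6221 in the mutants (log2 fold change 0.72 ± 0.07, adjusted p = 3.59e-05). Bmp6 fell (log2 fold change -1.01 ± 0.23), and Bmp2 and Bmp4 did not pass the test (log2 fold changes -0.20 and 0.18). Inhbb, which encodes an activin subunit, rose by 1.01 ± 0.22 log2, with 396 and 443 in the coded mutants and at most 274 in the others. Gdf15, a stress-induced cytokine of this family, rose, with 17 to 38.5 in the wild types and 274, 217, 524, 202 and 239 in the mutants (log2 fold change 3.44 ± 0.29).

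None of the 6 type I receptors passed the test. Acvrl1, which encodes ALK1, held 15939 to 17964 in the wild types and 17902 to 19938 in the mutants, ranges that met at their ends (log2 fold change 0.15 ± 0.06, adjusted p = 0.0513). It was called higher with the code as a term (0.15, adjusted p = 0.0246) and with a filter at 100 (0.15, 0.047). Without wild type 4 or mutant 3 it was called as well (0.0457 and 0.033). Of the type II receptors, Acvr2b fell (log2 fold change -0.60 ± 0.13), and Bmpr2 fell by 0.25 ± 0.07 on the log2 scale, a call lost without wild type 2 (adjusted p = 0.0505). The co-receptors moved apart. Eng rose, with 44586, 48988, 49684, 52285 and 52388 in the wild types and 60485, 64183, 74521, 66138 and 74707 in the mutants, with no overlap (log2 fold change 0.45 ± 0.08, adjusted p = 0.00167). Tgfbr3, the betaglycan co-receptor that presents TGF-β2, held 3603 to 5448 in the wild types and 1829, 1678, 1868, 1988 and 2369 in the mutants (log2 fold change -1.17 ± 0.14, adjusted p = 0.000112). The ligand Tgfb2 and the receptor that presents it were both lower in every mutant.

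Among the receptor-activated SMADs, those of the BMP branch passed the test and those of the TGF-β branch did not, a split that depended on the setting. Smad1 held 2271, 2482, 2218, 3024 and 2813 in the wild types and 4122, 4159, 4559, 6077 and 5779.6 in the mutants (log2 fold change 0.94 ± 0.13, adjusted p = 0.000347). The coded mutants had the highest Smad1, and the groups did not overlap. Smad5 rose by 0.39 ± 0.05 log2. Smad9, at low values, fell, with 60.7 to 111 in the wild types and 32.3, 8.77, 42.9, 3.07 and 3.96 in the mutants (log2 fold change -2.46 ± 0.59). Among the 6 uncoded libraries Smad9 stood at -1.70 and was not called (adjusted p = 0.0615). Smad2 and Smad3 stood at log2 fold changes of 0.05 ± 0.04 and 0.33 ± 0.12. Smad3 was called higher among the 4 coded libraries (0.57, adjusted p = 0.00251), with the code as a term (0.33, 0.0203) and without mutant 1 (0.43, 0.00449). It was also called in the joint fit of the 30 untreated libraries (0.33, 0.0357). The inhibitory SMADs, which switch the pathway off, are targets of it. Smad6 fell (-0.56 ± 0.13 log2, adjusted p = 0.00959), and Smad7 overlapped between groups (-0.33 ± 0.14 log2). Smad7 was called lower with the code as a term (-0.33, adjusted p = 0.0264) and among the 4 coded libraries (-0.50, 0.014). Skil, a nuclear repressor of SMAD complexes that is degraded upon TGF-β signalling, rose, with 5064 to 5995 in the wild types and 10130.5, 10299, 9040.0, 10944 and 11232 in the mutants (log2 fold change 0.88 ± 0.07). Among secreted inhibitors and binding proteins, Fstl1 rose by 0.97 ± 0.06 log2, with 9114 to 9670.2 in the wild types and 16752 to 20278 in the mutants.

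Targets of the BMP branch fell in larger number than they rose, at 12 falls and 4 rises of 24 tested, with a median of -0.42. The ID factors, which block basic helix-loop-helix transcription factors and are direct targets of SMAD1 and SMAD5, led the falls. Id1 (chr2:152736251-152737410, mm10, plus strand) held 6547, 7662, 5949.5, 8426 and 8006 in the wild types and 1238, 1382, 1037, 1448 and 1334 in the mutants. No library of one group came near the other, and the log2 fold change was -2.50 ± 0.11 (adjusted p = 1.32e-07). Id2 held 1853 to 2152 in the wild types and 701, 509.8, 791, 591 and 454 in the mutants (log2 fold change -1.73 ± 0.14). Id3 fell less, with 5670.1 to 8285 in the wild types and 3803, 3936, 3228, 5083 and 4308 in the mutants (log2 fold change -0.75 ± 0.14). Id4, the least abundant in value, overlapped between groups (-0.81 ± 0.33 log2, adjusted p = 0.0759). It was called lower with the code as a term (-0.81, adjusted p = 0.0332) and among the 4 coded libraries (-1.29, 0.0138). The same held without mutant 3 (-1.04, 0.0197) and in the joint fit of the 30 untreated libraries (-0.81, 0.0154).

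The letters GGCGCC are a known contact of BMP-activated SMADs, so the stretches that hold them are shown for the ID factors that have them, with up to 12 bases on each side and the match in capitals. They come from the RefSeq promoter table (GRCm38.p6, 250 bases before the start searched on both strands), which had 3 of the 4 ID factors and no entry for Id1.
Id2 (chr12:25096306-25096335, minus strand): tcaggccccctgGGCGCCcagcgcacactg
Id4 (chr13:48260956-48260985, plus strand): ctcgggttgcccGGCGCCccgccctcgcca
The letters occurred in 9.5% of all 27025 promoters searched and in 16.9% of those of tested genes. In Id3 they were not found in this window. A match is a description of the letters only.

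Further BMP targets that fell were Hey2 (log2 fold change -0.94 ± 0.14) and Atoh8 (-0.85 ± 0.20), both transcription factors, and the gap junction gene Gja4 (-0.44 ± 0.10). Under quantile normalization Atoh8 stood at -0.55 and was not called (adjusted p = 0.118). Hey1 fell by 0.31 ± 0.10 on the log2 scale, a call lost without wild type 3, wild type 4, wild type 5, mutant 1, mutant 2, mutant 3 or mutant 5 (adjusted p = 0.0553, 0.0738, 0.0869, 0.0626, 0.0632, 0.0669 and 0.0617). Gja5, the other arterial gap junction gene of the list, rose instead, with 3112 to 4446 in the wild types and 4771, 7296, 5652, 4486 and 4665 in the mutants (0.56 ± 0.14 log2). Lfng, a glycosyltransferase that modifies Notch receptors, rose the most of the list. It held 2253, 2451, 2222, 3459.6 and 3296 in the wild types and 9433, 11924, 9919.5, 12488 and 12947 in the mutants (log2 fold change 2.07 ± 0.14, adjusted p = 2.62e-06).

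Of 18 tested targets of the TGF-β branch, 6 rose and 4 fell (median 0.10). The list had 20 members, of which 18 were found under their listed names. Among those not found was Ccn2, which the values held under its older name Ctgf (described below). Pmepa1 (chr2:173224458-173276533, mm10, minus strand) is a feedback inhibitor of TGF-β signalling. It held 4201, 4660.4, 4618, 4423 and 4194 in the wild types and 9479, 10287, 10734, 11242 and 10649.8 in the mutants (log2 fold change 1.24 ± 0.06, adjusted p = 1.32e-07). Fn1, fibronectin, stood at 0.45 ± 0.10 log2, a call that was lost under quantile normalization (0.03, adjusted p = 0.81) and among the 6 uncoded libraries (0.34, adjusted p = 0.101). The falls were genes that mural cells and fibroblasts also express. Acta2, smooth muscle actin, held 599, 569, 776, 218 and 132 in the mutants against 860.2 to 1174 in the wild types (-1.35 ± 0.42 log2), and the call was lost without wild type 1, wild type 2, wild type 3, wild type 5 or mutant 4 (adjusted p = 0.0678, 0.0596, 0.051, 0.0543 and 0.0752). Ltbp3, which binds latent TGF-β, fell by 0.71 ± 0.14 on the log2 scale. In all 5 mutants Id1 was lower and Pmepa1 higher than in any wild type. With the mean log2 level of astrocyte, oligodendrocyte and neuron markers as a covariate (neural marker covariate), the 4 falls of this list were no longer called and 4 of the 6 rises were. These markers were themselves lower in the mutants, so the covariate partly follows genotype and can take up part of its effect. The falls numbered 2 without wild type 1, 2 or 5 or mutant 4.

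In the angiopoietin system, Angpt2 is the ligand that antagonizes the receptor TIE2 (Tek) in resting vessels and marks sprouting ones. Angpt2 (chr8:18690263-18741562, mm10, minus strand) held 1400.2, 1738, 2202, 2048 and 1815 in the wild types and 7271, 6703, 6524, 22452 and 23827 in the mutants. The mutants formed 2 levels, with the coded libraries far above the other 3, and all 5 above the wild types. The log2 fold change was 1.96 among the libraries without the code and 3.58 among those with it, a difference of 1.62 ± 0.21 (adjusted p = 0.0198), which was 1.46 to 1.78 with 1 library left out and not called without wild type 2 or 5 or mutant 5 (adjusted p = 0.0519, 0.12 and 0.0739). Tek held 30508 to 35176 in the wild types and 22152, 22565, 21158, 21989 and 22540.5 in the mutants, values that did not follow these 2 levels (log2 fold change -0.58 ± 0.05). Angpt1, the activating ligand made mainly by mural cells, fell by 0.88 ± 0.18 on the log2 scale, and Tie1 and Ptprb did not pass the test (0.26 and -0.16 log2). Ptprb was called lower after division by library sums (-0.24, adjusted p = 0.0157), and Tie1 was called higher without wild type 4 or mutant 1 or 3. Tie1 was also called higher with the code as a term (0.26, adjusted p = 0.00265) and with a filter at 100 (0.26, 0.0487). In all, 1 of 11 tested genes of the system rose and 3 fell, with 2 rises without wild type 4 or mutant 1, 3 or 5.

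VEGF drives sprouting through VEGFR2 (Kdr). Of 19 tested genes of this axis, 7 rose and 3 fell. The largest rise was that of Pgf (chr12:85166635-85177790, mm10, minus strand), placental growth factor, a ligand of VEGFR1. It held 87.1, 98.9, 67.3, 80.4 and 54.1 in the wild types and 879, 1370.1, 1034, 2061 and 2049 in the mutants (log2 fold change 4.16 ± 0.26, adjusted p = 1.11e-06), with the coded mutants the highest and no overlap. Vegfa fell, with 831, 533, 492, 339 and 485 in the wild types and 349, 212, 385, 300.1 and 225 in the mutants, which overlapped (-0.84 ± 0.23 log2). Of the receptors, Flt4 rose by 0.38 ± 0.09 log2, and Kdr, Flt1, Nrp1 and Nrp2 did not pass the test (-0.06, -0.23, 0.21 and -0.05 log2). Nrp1 was called higher among the 4 coded libraries (0.51, adjusted p = 0.00473). Flt1 was called lower after division by library sums (-0.31, adjusted p = 0.0388), under quantile normalization (-0.28, 0.0363), with the neural marker covariate (-0.56, 0.00247) and among the 6 uncoded libraries (-0.42, 0.0156). Spry1, a feedback inhibitor of receptor kinases, rose by 1.40 ± 0.17 log2, and Spry2 fell by 0.48 ± 0.13. With the neural marker covariate, 2 genes of the axis rose and 1 fell.

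Notch signalling restrains sprouting and favours arterial identity. Of its 20 tested genes, 6 rose and 6 fell. The ligand Dll1 rose by 0.95 ± 0.13 log2, and Dll4, the main endothelial ligand, stood at 0.03 ± 0.06 with overlapping groups. Notch4 rose, with 14009.6 to 17989 in the wild types and 21674, 24073, 26424, 25276 and 28144 in the mutants (0.64 ± 0.08 log2). Notch3, a receptor of mural cells, fell by 1.07 ± 0.21 on the log2 scale, with the lowest values in the coded mutants (1828 and 1448). Nrarp, a Notch target that dampens the signal, rose by 0.73 ± 0.08 log2, whereas the targets Hey2 and Heyl fell (-0.94 and -1.10 log2). The Heyl call was lost without wild type 1, wild type 2 or mutant 4 (adjusted p = 0.0502, 0.0564 and 0.0566).

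Tip cells lead vascular sprouts. Of 25 tested genes of these cells, 21 rose and none fell, with a median of 0.92. Apln, a secreted peptide of tip cells, held 10812, 11989, 13331, 13444 and 13317 in the wild types and 33949, 29854, 29737, 47697 and 49430.1 in the mutants (log2 fold change 1.57 ± 0.15). No mutant came near the wild types, and the coded mutants were the highest. Mcam, an adhesion molecule, held 8169 to 9953 in the wild types and 19087, 21992, 19686, 38147 and 34760.0 in the mutants (1.50 ± 0.19 log2). Chst1, a sulfotransferase, held 1378 to 1535 in the wild types and 4538, 4714, 5081, 7840.5 and 7699.6 in the mutants (1.99 ± 0.15 log2). Both showed the 2 levels of Angpt2. Lxn, latexin, did not. It held 2029 to 2349 in the wild types and 4271, 4254, 4047, 4652 and 4342 in the mutants (0.97 ± 0.06 log2), with coded and uncoded mutants close together. Cd34, Dll4, Unc5b and Sparc were the 4 members that did not pass the test. The level of a list in a library is given here as the median over its genes of the log2 difference from the wild-type mean. For the tip cell genes it was 0.68, 0.69 and 0.59 in the uncoded mutants and 1.25 and 1.13 in the coded ones.

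**Figure D2:**
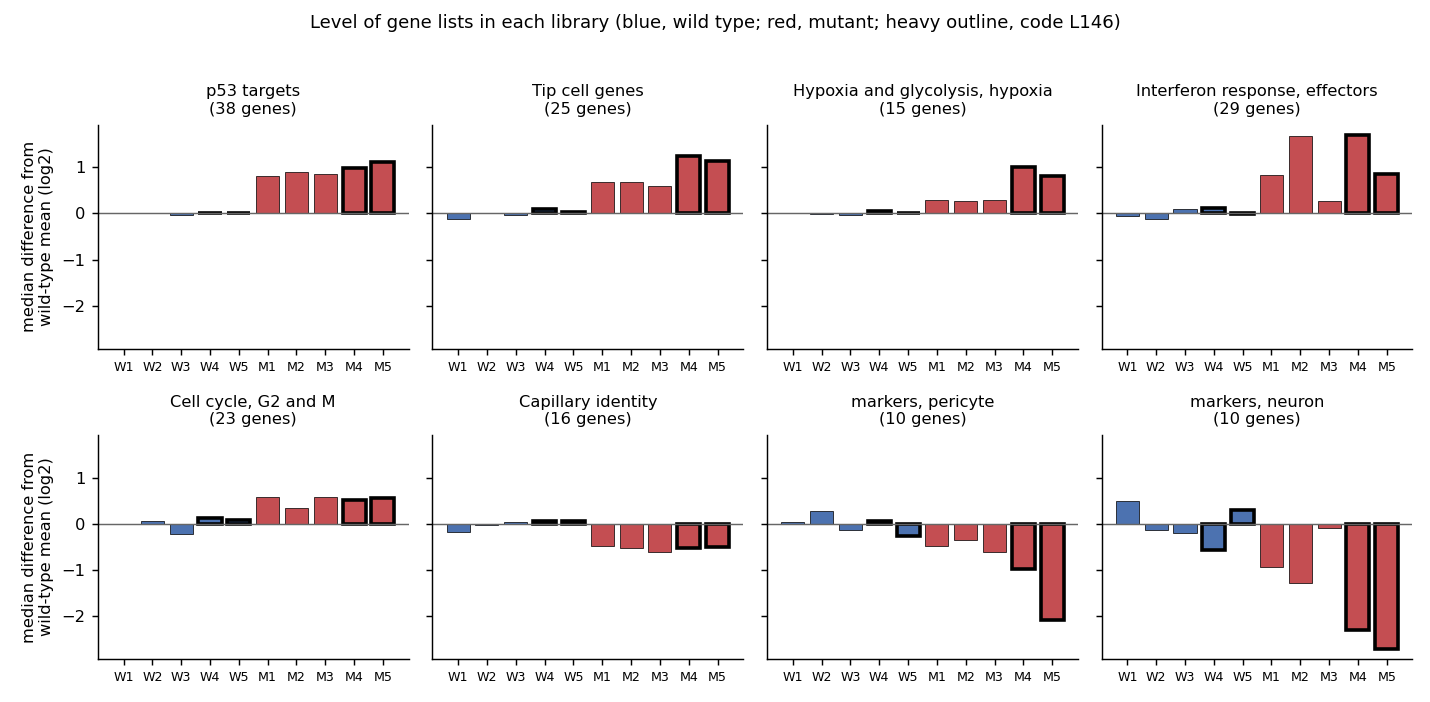
Level of 8 gene lists in each library, as the median over the list's genes of the log2 difference from the wild-type mean (y axis), with wild types W1 to W5 in blue, mutants M1 to M5 in red and a heavy outline for libraries that carry the code L146. The p53 list is nearly even across the 5 mutants, the tip cell and hypoxia lists are highest in the 2 coded mutants, and the interferon effectors are highest in mutants 2 and 4.

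Capillary genes mostly moved the other way. Of 16 capillary genes tested, 11 fell and 1 rose (median -0.52). Slc16a1 (chr3:104638668-104658462, mm10, plus strand), the lactate and ketone carrier MCT1, held 109056, 120071, 129751, 142219.9 and 159113 in the wild types and 48154, 48480.5, 45118, 56609.8 and 56827 in the mutants (log2 fold change -1.36 ± 0.11). Mutants and wild types were widely separated, and the coded mutants were slightly higher than the others. Slc22a8, an organic anion exporter, fell, with 21894 to 25407 in the wild types and 10729, 10183, 10817, 9133 and 9286 in the mutants (-1.25 ± 0.06 log2). Slco1c1, a thyroid hormone carrier, fell by 1.16 ± 0.10 on the log2 scale. Mfsd2a, the lysolipid carrier that keeps transcytosis low, fell by 0.52 ± 0.07, with all 5 mutants within 22616 to 23959. The member that rose was Rgcc, a cell cycle regulator (0.94 ± 0.12 log2). In contrast with the tip cell genes, the level of the capillary list was nearly the same in all 5 mutants, coded or not, at -0.48, -0.53, -0.60, -0.52 and -0.50. The 11 falls and 1 rise were also the count with the neural marker covariate and after division by library sums.

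Over the 47 tested carriers of the SLC families, 23 fell and 9 rose (median -0.31). By substrate, 5 of 7 carriers of glucose, lactate and energy substrates fell, 6 of 9 organic anion and cation carriers, 7 of 15 carriers of vitamins, metals and ions, and 5 of 16 amino acid carriers. Slc5a6, which carries biotin and pantothenate, held 4316, 4484, 4934, 5356 and 5022 in the wild types and 2212, 2594, 2292, 2521 and 2516 in the mutants (-0.99 ± 0.07 log2). Slc2a1, the glucose carrier GLUT1, rose instead, with 46491 to 56572 in the wild types and 75189, 89457, 74417, 86729.7 and 101631 in the mutants (0.72 ± 0.10 log2). The neutral amino acid pair Slc7a5 and Slc3a2, which form 1 transporter, did not pass the test (0.24 and 0.02 log2). Slc7a5 was called higher with the code as a term (0.24, adjusted p = 0.0154) and among the 6 uncoded libraries (0.32, 0.0458).

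Of the efflux pumps and lipid transporters of the ABC family, 6 of 12 fell and 4 rose. Abcb1a, P-glycoprotein, fell by 0.55 ± 0.06 on the log2 scale and Abcg2 by 0.40 ± 0.07. Abcb1b rose (1.25 ± 0.21 log2) at low values (221 to 270.2 in the mutants), and since these near-identical copies can share reads the split between them is uncertain. Of the tight junction genes, 4 of 13 fell and 1 rose. Ocln, occludin, fell by 0.56 ± 0.06 on the log2 scale and the junctional adhesion molecule gene Jam2 by 0.73 ± 0.04, whereas Cldn5, the main claudin of the barrier, held 88142 to 117794 in the wild types and 85804 to 121844 in the mutants (0.05 ± 0.12 log2, adjusted p = 0.779). Plvap, which forms the diaphragms of leaky vessels, rose, with 2323 to 2807 in the wild types and 4675, 4209, 4652, 4259 and 5163 in the mutants (0.82 ± 0.07 log2). Cav1, the coat protein of caveolae, did not pass the test (0.01 ± 0.09 log2), but was called higher among the 4 coded libraries (0.31, adjusted p = 0.00623).

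Wnt signalling through β-catenin maintains the barrier. Of its 12 tested targets, 7 fell and 2 rose (median -0.45). Notum, a secreted Wnt inhibitor that is itself a Wnt target, held 2980.1, 2722, 3215, 3124 and 2949 in the wild types and 1114, 972, 1135, 936 and 906 in the mutants (-1.57 ± 0.08 log2, adjusted p = 1.91e-07). Apcdd1, another such feedback gene, held 93826 to 130259 in the wild types and 63636, 63688, 64284, 56460.4 and 60117 in the mutants (-0.86 ± 0.10 log2). The receptor parts Fzd4 and Tspan12 rose (0.39 ± 0.08 and 0.43 ± 0.09 log2) while Lrp6 fell (-0.23 ± 0.06). After division by library sums, 3 genes of the whole Wnt list rose and 12 fell, against 5 and 10.

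Arterial and venous identity gave no single direction. Of 22 arterial genes, 5 rose and 7 fell, and of 16 venous genes, 6 rose and 7 fell. Gkn3, a marker of brain arteries, fell, with 1271 to 1676 in the wild types and 507, 521, 482, 652 and 453 in the mutants (-1.53 ± 0.11 log2), and Cxcl12 fell by 1.31 ± 0.17. Bmx and Fbln5, also arterial, rose (0.28 ± 0.07 and 0.44 ± 0.10 log2). On the venous side Icam1 rose (0.93 ± 0.14) and Ackr1, a chemokine-binding receptor of venules, fell (-1.25 ± 0.27). Tbx3, a T-box factor, fell, with 2462 to 2939 in the wild types and 1269.7, 1260.3, 1328, 1464 and 1427 in the mutants (-0.99 ± 0.06 log2). Erg and Ets1, which define the endothelial programme, did not pass the test (0.03 and -0.07 log2).

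The transcription factor p53 responds to DNA damage and other stress by inducing genes of arrest, repair and death. Of 38 tested p53 targets, 27 rose and 5 fell, with a median of 0.90. Eda2r (chrX:97333840-97377216, mm10, minus strand), a receptor of the TNF family, had the largest rise of all genes tested. It held 54.3, 32.2, 40.5, 17.9 and 38.5 in the wild types and 1418, 1507, 1104, 1155 and 1386 in the mutants (log2 fold change 5.16 ± 0.24, adjusted p = 1.56e-07). Phlda3, an inhibitor of AKT, held 141 to 162 in the wild types and 1476, 1706, 1509, 1837 and 1793 in the mutants (3.42 ± 0.09 log2, adjusted p = 2.36e-09). Both were low in every wild type and high in every mutant, and neither separated coded from uncoded libraries widely.

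Zmat3, an RNA-binding tumour suppressor, held 1296 to 1391 in the wild types and 4639, 4833, 5569, 5049 and 5934 in the mutants (1.93 ± 0.07 log2). Aen, an exonuclease of cell death, held 755 to 793 in the wild types and 1985, 2136, 1985, 2030.1 and 2097 in the mutants (1.39 ± 0.05). Ephx1, an epoxide hydrolase, held 724 to 941 in the wild types and 3549, 3587, 3347, 2990.2 and 3226 in the mutants (2.02 ± 0.08). In each of the 3 genes the mutants lay within a narrow band, with no gap between coded and uncoded libraries. Cdkn1a, the cell cycle inhibitor p21 and the best known p53 target, rose, with 2165 to 2899 in the wild types and 7459.7, 8734, 7268, 10784 and 11326 in the mutants (1.86 ± 0.14). Ccng1 and Mdm2, which feed back on p53, rose by 1.68 ± 0.09 and 0.68 ± 0.08 log2. The 5 members that fell were Trp73, Pmaip1, Ddb2, Xpc and Sesn1 (-1.97, -0.46, -0.38, -0.24 and -0.23 log2), and each of these 5 calls was lost without at least 1 library. The Trp73 call was lost without wild type 1, wild type 2, wild type 5 or mutant 4 (adjusted p = 0.0807, 0.0687, 0.0536 and 0.0689), that of Pmaip1 without wild type 3, wild type 4, wild type 5, mutant 4 or mutant 5 (adjusted p = 0.0597, 0.0645, 0.0717, 0.0621 and 0.0627), that of Ddb2 without wild type 1, wild type 2, wild type 3, wild type 4, wild type 5, mutant 1, mutant 4 or mutant 5 (adjusted p = 0.06, 0.0737, 0.0644, 0.0655, 0.0513, 0.0662, 0.0856 and 0.0727), that of Xpc without mutant 4 or mutant 5 (adjusted p = 0.0569 and 0.0527) and that of Sesn1 without wild type 1, wild type 2, wild type 3, wild type 4 or mutant 4 (adjusted p = 0.0614, 0.0629, 0.0612, 0.0525 and 0.0509). The falls numbered 2 under quantile normalization. Without mutant 4 none of the 38 targets fell, whereas at least 26 rose whichever library was left out. The level of the list was 0.82, 0.89, 0.85, 0.99 and 1.12 in mutants 1 to 5.

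Genes that drive the cell cycle rose as well, by less. Of 23 tested genes of G2 and mitosis, 21 rose and none fell (median 0.51), and of 23 genes of G1 and S phase, 14 rose and 1 fell (median 0.36). Ube2c, which tags mitotic proteins for degradation, held 554 to 683 in the wild types and 1176, 1041, 1106, 1241 and 1151 in the mutants (0.85 ± 0.07 log2). Plk1, a mitotic kinase, held 619.9 to 744 in the wild types and 1111, 1079, 1253, 1130.3 and 1166 in the mutants (0.73 ± 0.07). Ccnb1, cyclin B1, held 844, 833, 694, 891 and 950.0 in the wild types and 1443, 1369.8, 1298, 1569.5 and 1432 in the mutants (0.76 ± 0.09). Mki67 was 1 of the 2 genes of G2 and mitosis that did not pass the test (0.34 ± 0.13, adjusted p = 0.061), the other being Cenpf (0.17 ± 0.11). Mki67 was called higher with the code as a term (0.34, adjusted p = 0.02) and with the neural marker covariate (0.61, 0.00729). It was also called among the 4 coded libraries (0.20, 0.032), without wild type 2 or mutant 4 (0.0447 and 0.047), and in the joint fit of the 30 untreated libraries (0.0424). Of the inhibitors, Cdkn1c (chr7:143458339-143461050, mm10, minus strand), which encodes p57, fell, with 2705, 2541, 3182, 3098 and 3130.0 in the wild types and 736, 669.5, 738, 693 and 701 in the mutants. The 5 mutants lay in a narrow band far below the wild types (-2.04 ± 0.07 log2, adjusted p = 2.18e-08). Cdkn1a and Cdkn1c, inhibitors of one family, moved in opposite directions.

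Genes of G2 and mitosis are known to share promoter letters, CCAAT, bound by the factor NF-Y, and TTTGAA or TTCGAA, the element of the DREAM complex that silences them in arrested cells. The stretches of 3 of them are shown with the matches on either strand in capitals, from the same RefSeq table.
Ccnb1 (chr13:100786537-100786597, minus strand): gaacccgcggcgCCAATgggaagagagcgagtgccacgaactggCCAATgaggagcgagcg
Cdc20 (chr4:118437344-118437408, minus strand): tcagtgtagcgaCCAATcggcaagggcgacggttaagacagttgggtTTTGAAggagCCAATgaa
Kif11 (chr19:37376325-37376380, plus strand): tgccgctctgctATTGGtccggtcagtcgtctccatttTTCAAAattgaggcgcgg
Of the 23 genes, 19 had an entry. CCAAT was present in 16 of them (84.2%), against 36.3% of promoters of tested genes and 34.5% of all promoters. TTTGAA or TTCGAA was present in 7 (36.8%), against 12.1% and 17.4%, and both together in the same 7 (36.8%), against 4.8% and 6.2%. Cdc20 and Kif11 hold both, and rose by 0.46 ± 0.09 and 0.48 ± 0.07 log2. Ccnb1 holds CCAAT only.

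Interferons induce antiviral genes through the sensors RIG-I and MDA5, the STAT factors and IRF factors. Of 29 tested effector genes of this response, 18 rose and none fell (median 1.03), and of 13 sensors and signalling genes, 10 rose and 2 fell. Ifit1, which binds foreign RNA, held 181, 196, 268, 257 and 225 in the wild types and 595, 1334, 382, 1072 and 561 in the mutants (1.67 ± 0.30 log2, adjusted p = 0.00191). Mutants 2 and 4 were the highest and mutant 3 the lowest, and all 5 lay above the wild types. Rsad2, viperin, was also highest in mutants 4 and 2 and lowest in mutant 3, with 115 to 189 in the wild types and 448, 997, 258, 1216 and 417 in the mutants (1.89 ± 0.38 log2). Irf7, the factor that amplifies the response, held 511 to 698 in the wild types and 1203, 2721, 703, 3074 and 1242 in the mutants (1.40 ± 0.34). Isg15, a ubiquitin-like modifier, held 945, 1952, 371, 2368 and 908 in the mutants against 305 to 424 in the wild types (1.55 ± 0.41), so mutant 3 lay within the wild types. Ddx58, which encodes RIG-I, rose by 0.53 ± 0.10 log2, whereas the receptor subunit Ifnar1 fell by 0.34 ± 0.08.

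The level of the 29 effectors was 0.83, 1.67, 0.28, 1.70 and 0.85 in mutants 1 to 5, a spread that cut across the library code. The 28 rises over all 42 genes of the response became 6 with the neural marker covariate, where the list median was 0.57 against 0.73, and 14 among the 6 uncoded libraries alone (median 0.69). Antigen presentation followed the same libraries, with 0.00, 0.80, -0.03, 1.09 and 0.37 over 12 tested genes, of which 4 rose and none fell. The 4 rises became 1 without wild type 4 or 5 or mutant 2 or 4, 2 without wild type 1 or mutant 5, 2 after division by library sums and 0 with the neural marker covariate. Tap1, the peptide transporter, rose, with 790.1 to 965 in the wild types and 1357, 2438, 1439, 3106 and 1641 in the mutants (1.08 ± 0.20 log2). H2-D1 rose by 0.78 ± 0.24 log2 and H2-K1 overlapped between groups (0.66 ± 0.32), and reads of these near-identical class I genes can be shared. H2-K1 was called higher with the code as a term (0.65, adjusted p = 0.027), among the 4 coded libraries (1.07, 0.0017) and without mutant 1 (0.91, 0.0252). The H2-D1 call was lost without wild type 4, wild type 5, mutant 2 or mutant 4 (adjusted p = 0.0584, 0.064, 0.0621 and 0.0543) and under quantile normalization (0.0533). Microglia and macrophage markers did not pass the test for any of 13 genes tested, with summed microglial levels of 8703 to 22263 in the wild types and 5241 to 19359 in the mutants. Their part in the interferon result was not tested.

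The interferon-stimulated response element pairs the letters GAAA with a second GAAA after any 2 bases. The stretches of 4 effectors show it in capitals on either strand, again with up to 12 bases on each side.
Isg15 (chr4:156200863-156200908, minus strand): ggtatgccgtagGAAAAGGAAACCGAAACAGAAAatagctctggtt
Ifit1 (chr19:34640773-34640825, plus strand): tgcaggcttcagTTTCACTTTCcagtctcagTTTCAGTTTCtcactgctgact
Ifit3 (chr19:34583361-34583428, plus strand): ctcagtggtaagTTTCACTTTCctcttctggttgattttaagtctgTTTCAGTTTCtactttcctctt
Rsad2 (chr12:26456551-26456584, minus strand): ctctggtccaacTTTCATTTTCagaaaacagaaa
Isg15 holds 3 overlapping matches, Ifit1 and Ifit3 hold 2 each and Rsad2 holds 1. The letters occurred in 13 of 22 effector promoters in the table (59.1%), 2.5% of promoters of tested genes and 3.0% of all promoters. Among genes that rose the share was 3.1% and among genes that fell 1.8%. Ifit3b, a copy of Ifit3, holds an identical stretch, and the split of reads between these 2 genes is uncertain. In Ifit2, Oasl1 and Oasl2, which also rose (1.52, 1.56 and 1.52 log2), these letters were not found in the window.

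Low oxygen stabilizes HIF factors, which induce glycolysis and angiogenic genes. Of 15 tested hypoxia genes, 9 rose and 3 fell (median 0.55), and of 19 glycolysis genes, 12 rose and none fell (median 0.45). Egln3, a HIF target that hydroxylates HIF in turn, held 88.2, 90.5, 65.3, 63.4 and 51.1 in the wild types and 177, 144, 197, 566 and 497 in the mutants (1.91 ± 0.38 log2). All mutants exceeded the wild types, by far the most in the 2 coded libraries. Ddit4, which restrains mTOR, rose in all mutants, with 1356 to 2198 in the wild types and 5369.5, 8134, 3369, 5527 and 6895 in the mutants (1.72 ± 0.21 log2). Slc16a3, the lactate exporter MCT4, held 82.8, 106, 78.3, 428 and 297 in the mutants against 42.7 to 82.8 in the wild types (1.41 ± 0.46 log2), so mutant 3 lay within the wild types, and the call was lost without wild type 1, wild type 2, wild type 4, wild type 5, mutant 4 or mutant 5 (adjusted p = 0.0642, 0.0676, 0.0633, 0.0752, 0.0705 and 0.0809). The 3 hypoxia genes that fell were Ndrg1 (-0.85 ± 0.13 log2), Vegfa and Epas1, which encodes HIF-2α (-0.46 ± 0.06). Hif1a rose (0.47 ± 0.07).

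The code separated these lists. The level of the hypoxia genes was 0.30, 0.26 and 0.29 in the uncoded mutants and 1.00 and 0.80 in the coded ones, and that of the glycolysis genes was 0.16, 0.28 and 0.17 against 0.68 and 0.70. Over both lists the 21 rises became 14 without wild type 2, 12 among the 6 uncoded libraries, 25 among the 4 coded ones and 5 with the neural marker covariate. Of the 31 respiratory chain genes, 3 rose and none fell (median 0.08), among them Uqcrc1 (0.24 ± 0.04 log2). The 3 rises became 9 without mutant 3 and 1 after division by library sums. Cholesterol synthesis showed no rise and 6 falls among 20 genes (median -0.13), with 3 falls without wild type 1 or 5 or mutant 5, 2 among the 6 uncoded libraries and 1 with the neural marker covariate. Detoxifying enzymes showed 9 falls and 2 rises among 20 (median -0.58), and 5 falls and 1 rise with that covariate. Fmo1, a flavin monooxygenase, fell, with 968 to 2063 in the wild types and 283, 266, 359.7, 220.3 and 200.3 in the mutants (-2.29 ± 0.20 log2), and Aldh2 fell by 0.92 ± 0.08.

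Of 7 basement membrane collagens 3 rose and 2 fell, and of 12 laminins and other membrane proteins 6 rose and 2 fell. Col18a1 (chr10:77052178-77166548, mm10, minus strand), whose product releases endostatin, held 20808, 26989, 24063, 28162 and 26824 in the wild types and 89929, 94970.4, 96417, 110129 and 104944 in the mutants (1.97 ± 0.09 log2, adjusted p = 1.6e-07). The groups were far apart, with little spread in either. Col4a1 and Col4a2, the main collagen of the membrane, rose by 0.92 ± 0.15 and 0.80 ± 0.14 log2. The laminin chain genes Lama4, Lamb1 and Lamc1, whose products can form 1 trimer, rose by 0.79 ± 0.10, 0.90 ± 0.16 and 0.81 ± 0.12 log2. None of 11 fibrillar and other collagens rose and 5 fell, among them Col3a1 (-0.55 ± 0.11 log2). Over all 18 collagens the 7 falls became 4 without wild type 1 or 2 and 2 with the neural marker covariate. Tnc, tenascin C, fell, with 1664 to 2738 in the wild types and 748, 409, 846, 604 and 528 in the mutants (-1.73 ± 0.19 log2).

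Matrix proteases and adhesion receptors changed beside them. Of 22 metalloproteinases and inhibitors, 9 rose and 1 fell. Adam12 held 456 to 668 in the wild types and 2602, 3236, 2938, 4059 and 3322 in the mutants (2.53 ± 0.14 log2), and Timp1 rose by 0.93 ± 0.12. Of 14 integrin subunits, 7 rose and 3 fell. Itga5, the fibronectin receptor, rose, with 8015 to 9327 in the wild types and 15086, 14415, 15419, 17225 and 17563 in the mutants (0.84 ± 0.07 log2), and Itga9 rose by 1.03 ± 0.08. Itga2, a collagen receptor subunit, fell by 0.96 ± 0.11 on the log2 scale. Itgb3 rose by 1.16 ± 0.26 and showed the 2 levels, with 670.3 and 634 in the coded mutants and 313, 290.5 and 296 in the others.

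Of 19 tested genes of coagulation and fibrinolysis, 10 rose and none fell (median 0.52). Among them, F5, coagulation factor V, held 437 to 878 in the wild types and 1524, 1534, 1959.5, 1636 and 1618 in the mutants (1.40 ± 0.16 log2). S100a10 and Anxa2, which together bind plasminogen at the cell surface, rose by 1.56 ± 0.13 and 1.09 ± 0.10 log2. Gas6, a ligand of TAM receptors, held 4906 to 6504 in the wild types and 13365, 14732, 14851, 12707 and 13939 in the mutants (1.32 ± 0.08). Of 33 axon guidance genes, 10 rose and 7 fell, and 4 fell without wild type 1, 2 or 5 or mutant 2, 4 or 5. The ephrin receptor Epha2 rose, with 2067 to 2289 in the wild types and 5941, 5614, 6192, 6649.6 and 6201 in the mutants (1.48 ± 0.05 log2, adjusted p = 2.42e-08), and the semaphorin Sema3c fell by 1.31 ± 0.17 on the log2 scale. Of 23 flow-responsive and vasoactive genes, 13 rose and 4 fell. The prostaglandin synthases moved apart, with Ptgs1 up (1.09 ± 0.12 log2) and Ptgs2 down, with 662 to 1437 in the wild types and 264, 141, 314, 347 and 383 in the mutants (-1.66 ± 0.28).

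Secreted factors outside the BMP and VEGF families changed in both directions. Lif, a cytokine, held 5.33, 7.87, 2.5, 3.94 and 9.4 in the wild types and 59.7, 77.5, 38.2, 41.5 and 48.7 in the mutants (2.85 ± 0.35 log2). Ctgf, a matricellular growth factor, rose, with 969.9 to 1768 in the wild types and 3516, 4236, 3485, 9083 and 12113 in the mutants (2.15 ± 0.34), with the coded mutants well above the others. Ctgf is the older name of Ccn2, a target of the TGF-β branch that was not counted among the 18 tested above. Pdgfd and Tnfsf10, the latter encoding the death ligand TRAIL, fell by 1.35 ± 0.09 and 1.29 ± 0.10 on the log2 scale. Cx3cl1, the ligand of the microglial receptor, held 1512 to 1673 in the wild types and 839, 954, 839.7, 936 and 808 in the mutants (-0.87 ± 0.06). Immediate early genes, which dissociation can induce, showed 4 falls and no rise among 18. The 4 falls became 2 without wild type 1, 9 among the 4 coded libraries, and 0 among the 6 uncoded ones or with the neural marker covariate. Fos held 13419, 4603, 13412, 8913 and 9337 in the mutants against 14344 to 21691 in the wild types, with the lowest value in mutant 2 (-0.83 ± 0.26 log2), and the call was lost without wild type 1, wild type 2, wild type 4, mutant 4 or mutant 5 (adjusted p = 0.0747, 0.0502, 0.0588, 0.0632 and 0.0535). The list's level was -1.17 in that library and -0.15 to -0.29 in the other 4.

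Other lists were mixed or small in effect. Adherens junction genes showed 4 rises and no fall among 8, with Pecam1 among them. Over all 21 junction genes of the barrier the 5 rises and 4 falls became 3 and 6 under quantile normalization. Of 15 vesicle and caveolae genes 6 rose and 2 fell, and the rises became 3 after division by library sums or quantile normalization and 1 among the 6 uncoded libraries. Cytosolic ribosome genes showed 9 rises and no fall among 30, with a median of 0.12, and none of the 9 was called with the neural marker covariate. The rises numbered 16 without mutant 3, 5 after division by library sums and 4 under quantile normalization, with medians of 0.04 and 0.00 under these 2 scalings. Glucocorticoid-responsive genes showed 9 rises and 4 falls among 20, adhesion molecules and chemokines 6 rises and 7 falls among 20, and endothelial transcription factors 6 rises and 7 falls among 30. Serine and one-carbon synthesis showed 2 rises and 1 fall among 14, the fall being lost without wild type 1 or 2. Stalk and phalanx genes showed 4 rises and 2 falls among 10, but 2 rises and 3 falls under either other scaling or among the 6 uncoded libraries, and 2 rises without wild type 1 or 3 or mutant 5.

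The largest changes over all genes, among called genes of non-overlapping groups and a mean value of at least 50, included several with no place in these lists. Among the 12 largest rises were Eda2r, Ptprv, Pgf, BC018473, Gdf15, Phlda3, Ppef1, Gpr39, Kcne3, Slc2a6 and Lypd1, from 5.16 down to 3.03 log2. Ptprv, a phosphatase-like p53 target in mice, held 5.28, 15.4, 9.9, 13.1 and 15.6 in the wild types and 187, 414, 401, 475 and 448 in the mutants (4.80 ± 0.32 log2). Gpr39 (chr1:125676995-125873862, mm10, plus strand), a zinc-sensing receptor, held 176, 137, 116, 102 and 114 in the wild types and 856, 1427, 1446, 953 and 1361 in the mutants (3.20 ± 0.19). Its end overlaps that of Lypd1 (chr1:125867622-125913101, minus strand), and since strand-aware counting is not stated, reads from the overlap cannot be assigned to either gene. Lypd1, whose product binds nicotinic receptors, rose, with 191 to 278 in the wild types and 1458, 2529.8, 2247, 1664 and 2157 in the mutants (3.03 ± 0.16).

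The 12 largest falls were Wif1, Prg2, Ddc, Best1, Adgra1, Id1, Scn4b, Adamts16, Efcc1, Fmo1, Lgr6 and Slc9a2, from -3.23 to -2.19 log2. Ddc, the decarboxylase that makes dopamine and serotonin and lies in the enzymatic barrier of brain vessels, held 1287, 1646, 1647, 1885 and 2109 in the wild types and 249, 182, 283, 205 and 240.1 in the mutants (-2.87 ± 0.15 log2, adjusted p = 2.86e-07). Best1, a chloride channel, held 600.3 to 927 in the wild types and 77.9, 152, 133, 66.5 and 103 in the mutants (-2.79 ± 0.22). Wif1, a Wnt inhibitor, held 69.5 to 188 in the wild types and 14.8, 13.2, 21.5, 17 and 3.94 in the mutants (-3.23 ± 0.39). Among the 10 called genes of highest mean value, Fn1, Col4a1, Col4a2, Eln and Cd93 rose, and Spock2, a proteoglycan of capillaries, and Bsg fell (-0.75 ± 0.11 and -0.42 ± 0.10 log2).

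**Figure D3:**
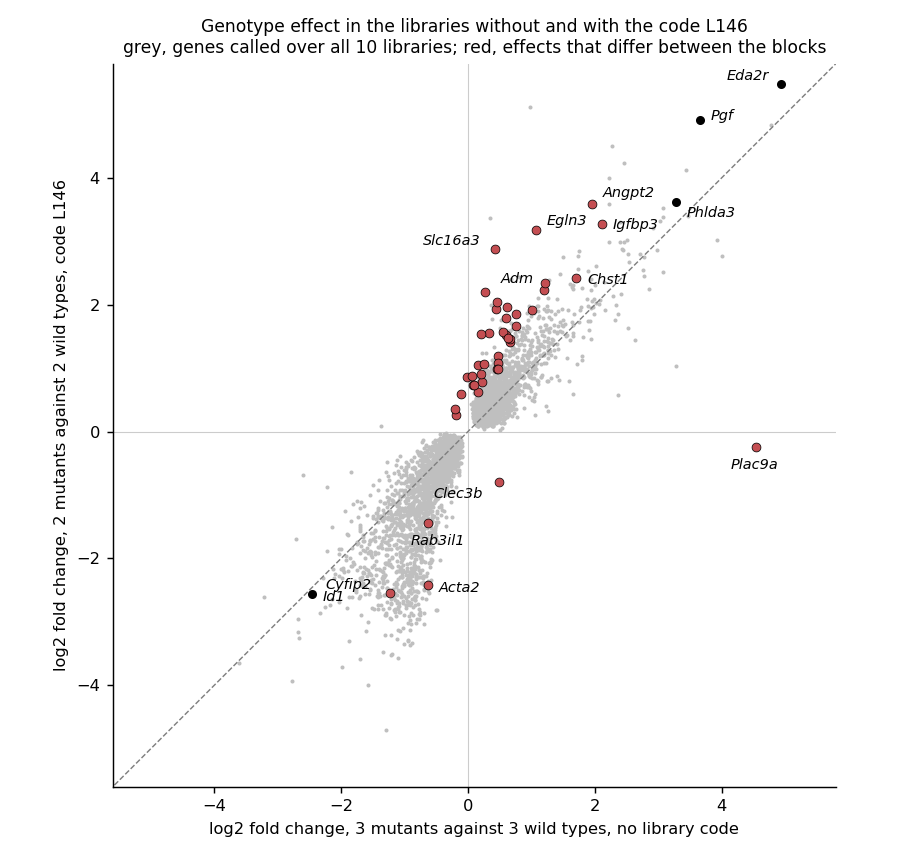
Log2 fold change of mutant over wild type among the 6 libraries without a code (x axis) and among the 4 with code L146 (y axis), 1 point per gene called over all 10 libraries (grey) or with a called difference between the blocks (red), and the dashed line marks equal effects. Eda2r, Phlda3 and Id1 (black) lie near the line, while Angpt2, Egln3 and Slc16a3 lie above it and Acta2 below it.

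The 2 levels seen in Angpt2 and its like were tested after they had been seen, as the genotype effect in the coded libraries minus that in the uncoded ones. It passed the threshold for 43 of 14012 genes (0.307%), 38 of them larger with the code, although without mutant 4 only 11 of 45 such genes were larger with it and 34 smaller, and 1842 had an unadjusted p under 0.05. Igfbp3, a growth factor binding protein of tip cells, stood at 2.11 log2 without and 3.27 with the code. The corresponding values were 1.07 and 3.17 for Egln3, 0.42 and 2.88 for Slc16a3, 1.21 and 2.23 for Adm, and 0.77 and 1.86 for Esm1. The last 2 are a vasodilator peptide and a proteoglycan of tip cells. Acta2 differed the other way, at -0.63 and -2.42. With 1 library left out these differences kept their signs, but the calls of Igfbp3, Egln3, Slc16a3, Adm, Esm1 and Acta2 were lost in 8, 6, 8, 7, 9 and 9 of the 10 fits. Eda2r, by comparison, stood at 4.94 and 5.48, and Id1 at -2.46 and -2.56. The number of such genes was 14 after division by library sums, 6, 11, 15 and 1 without wild type 2, 3, 4 or 5, and 14 and 10 without mutant 1 or 5. Without wild type 1 or mutant 2 or 3 it was 38, 36 and 30, of which 36, 31 and 27 were larger with the code. With 2 coded libraries per group, code, depth and the pups behind the libraries cannot be told apart.

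Markers of cells other than endothelium moved with genotype and with the code. Of the neuronal markers 8 of 10 fell (median -1.56), of the pericyte markers 6 of 10 (median -0.91), of smooth muscle 4 of 5, of oligodendrocyte lineage 4 of 8 and of astrocytes 2 of 8, and none of these rose. With 1 library left out the falls numbered 3 (without wild type 1 or 2 or mutant 4) to 8 for pericytes, 2 (without wild type 1 or mutant 4) to 4 for smooth muscle, 2 (without wild type 1 or 5 or mutant 4) to 7 (without mutant 3) for the oligodendrocyte lineage, and 0 (without wild type 1 or mutant 2, 4 or 5) to 6 (without mutant 3) for astrocytes. With the neural marker covariate no pericyte or smooth muscle marker was called, and the medians were -0.33 and -0.17. Pericyte marker sums were 58753 to 83373 in the wild types and 48027, 52150, 39277, 35855 and 16578 in the mutants. The level of the neuronal markers was -0.93, -1.29 and -0.09 in the uncoded mutants and -2.30 and -2.70 in the coded ones. Rgs5, a leading pericyte gene, held 26592, 27436, 19023, 19132 and 8428 in the mutants against 32836 to 44589 in the wild types (-1.04 ± 0.27 log2). Haemoglobin genes of red cells were lower as well, for example Hbb-bt, at 719.5, 689, 482, 671 and 598 against 1720.1 to 2432 (-1.61 ± 0.12). No microglial or perivascular macrophage marker was called. The 8 neuronal falls became 2 without wild type 1, 3 without wild type 2 or 5 or mutant 4, and 4 without wild type 3 or mutant 2 or 5. Mutants 4 and 5, highest in tip cell, hypoxia and glycolysis genes, were lowest in pericyte, neuronal and microglial markers. Per library, the part of these cells in the results was not tested.

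Astrocyte, oligodendrocyte lineage and neuron markers were themselves lower in the mutants (medians -1.24, -1.49 and -1.56), so a covariate made from them partly follows genotype. It can take up part of the genotype effect and widen its error, so a call lost with it does not show the reason. With the mean log2 level of astrocyte, oligodendrocyte and neuron markers (neural marker covariate) in the model, 2155 genes passed the threshold. The tip cell genes then showed 16 rises and a median of 0.55, and the p53 targets 23 rises, 1 fall and a median of 0.79. Smad4, Id1, Cdkn1c, Col18a1, Eda2r and Phlda3 kept their calls in that fit and in each fit that left out 1 library. Among genes described above, Ackr1, Acta2, Acvr2b, Adamts16, Adgra1, Angpt1, Bmp6, Bmx, Col3a1, Ddb2, Egln3, Esm1, Fbln5, Flt4, Fn1, Fos, Fzd4, H2-D1, Heyl, Ifit2, Ifit3, Ifit3b, Inhbb, Irf7, Isg15, Itgb3, Lrp6, Ltbp3, Notch3, Oasl1, Pecam1, Pmaip1, Prg2, Rgs5, Rsad2, Slc16a3, Smad9, Spry2, Tap1, Trp73, Tspan12, Vegfa and Xpc were no longer called in it.

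**Figure D4:**
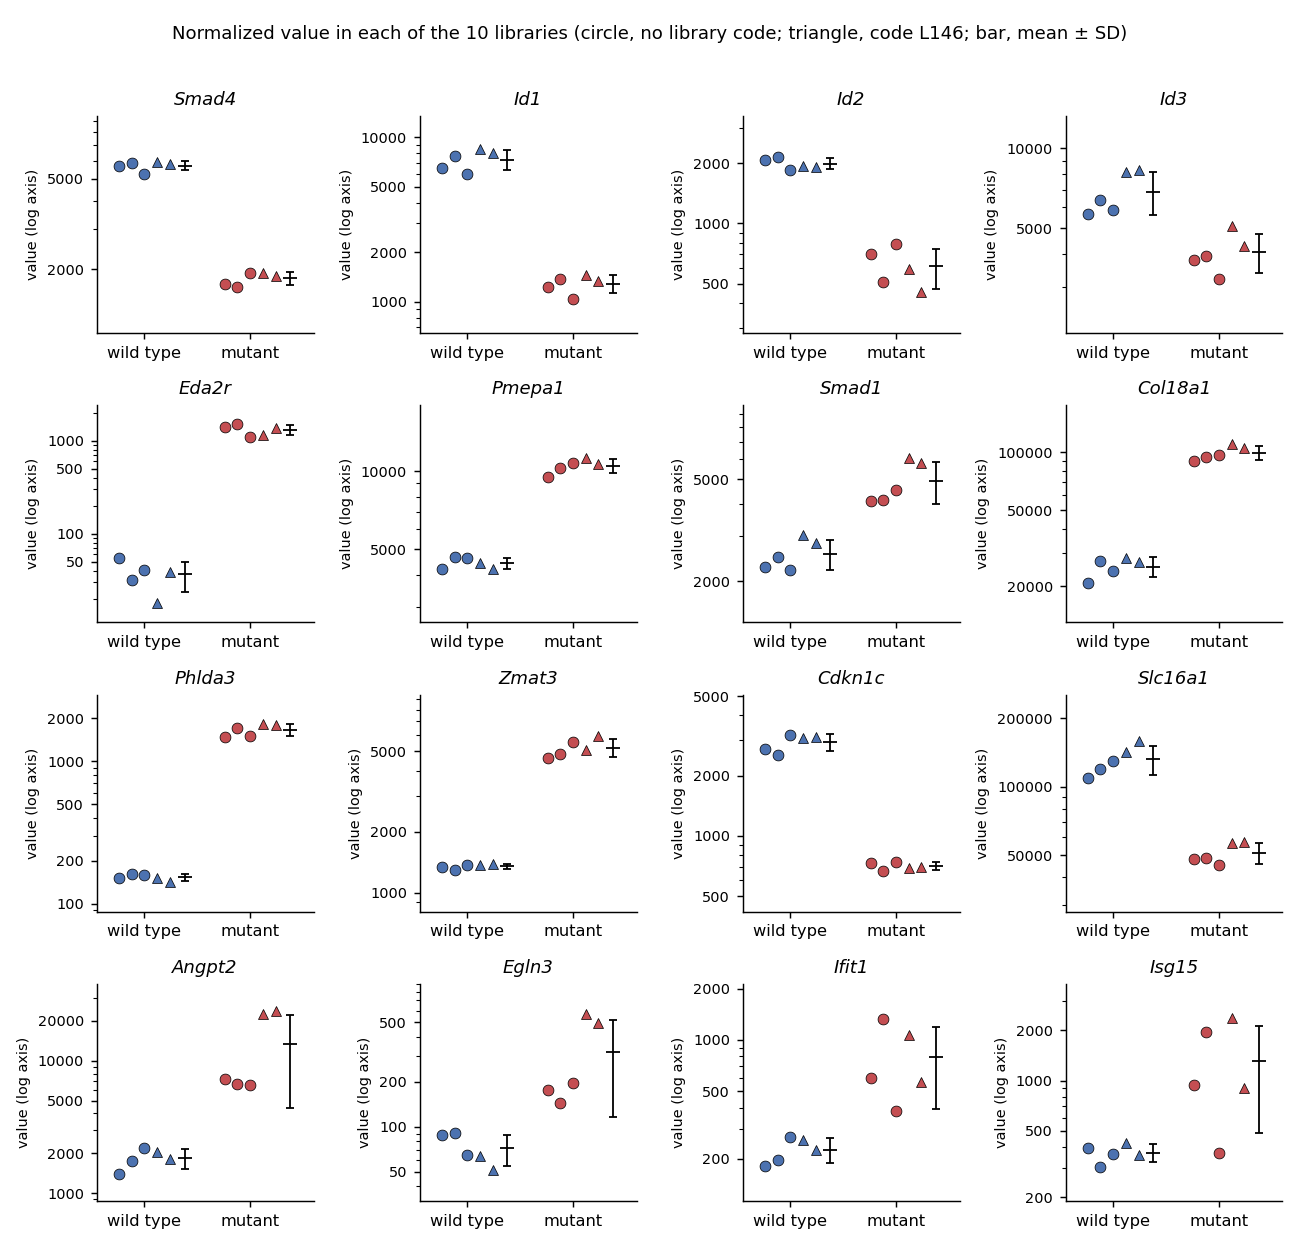
Normalized values of 16 genes in each of the 10 libraries on a log axis, wild types (blue) beside mutants (red), with triangles for the code L146 and a bar for mean ± SD (n = 5). Smad4, Id1 and Cdkn1c are lower in all 5 mutants, Eda2r and Phlda3 higher in all 5, and Angpt2 forms 2 levels among the mutants.

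Pups with the same genotypes that received 30 µg of control IgG on days 2 and 4 gave 3 further mutants and 3 wild types. There, 2480 of 13939 genes passed the threshold (17.8%), a number that fell to 1471, 864 and 1223 without wild type 1, 2 or 3 and to 483 and 1329 without mutant 2 or 3, and rose to 3075 without mutant 1. Of the genes that rose in untreated pups 95.8% had the same sign under IgG and of those that fell 96.1%. Called the same way were 1069 of 2398 and 732 of 2168, and 1 was called the opposite way. Over all 13939 genes tested under IgG, 1348 rose and 1132 fell. The share of equal signs over all genes, called or not, was not computed. Log2 fold changes under IgG were -1.81 for Id1, -1.39 for Cdkn1c, 4.55 for Eda2r and 0.88 for Angpt2. The test of the difference between untreated and IgG effects called 1 of 13793 genes (0.00725%), the unannotated 2210418O10Rik (log2 fold change -0.02 untreated and 6.27 under IgG), and 927 genes had an unadjusted p under 0.05. The interferon list had a median of 0.73 in untreated pups and 0.13 under IgG. The hypoxia genes had 0.55 and 0.02, and the p53 targets 0.90 and 0.83. Of single genes, Ifit1 stood at 0.29 ± 0.43 log2 under IgG and Zmat3 at 1.56 ± 0.14.

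Deletions of Alk1 and Eng with the same Cre, in 5 mutants and 5 wild types each, were the nearest comparisons. Eng pups had the same tamoxifen dose, days and age, and Alk1 pups received 100 µg on day 4 and were taken on day 6, so the Alk1 comparison also differs in time. The Smad4 effect differed from that of Alk1 in 2305 of 13500 genes (17.1%) and from that of Eng in 1168 (8.65%), the latter becoming 1793 without mutant 3.

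**Figure D5:**
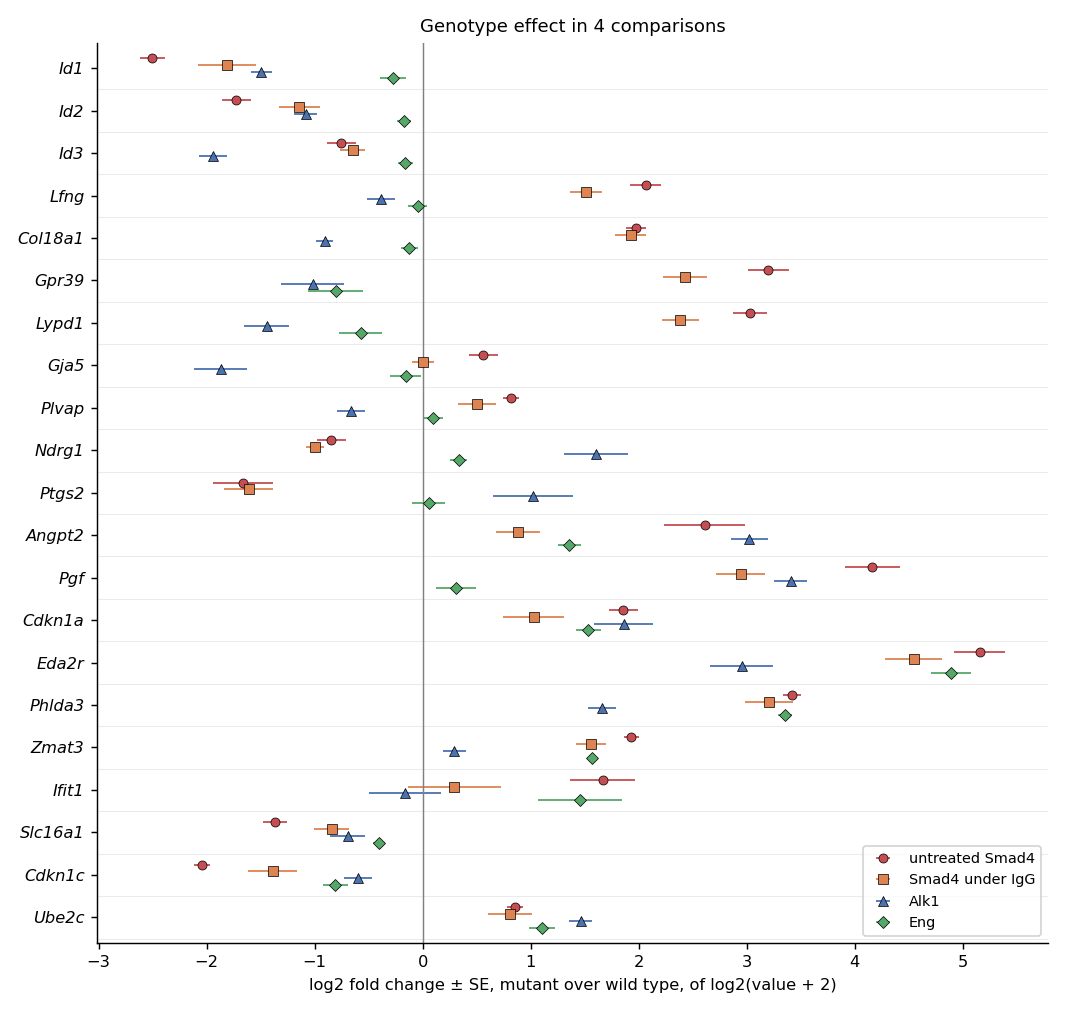
Log2 fold changes ± SE of selected genes in untreated Smad4, IgG-treated Smad4, Alk1 and Eng mutants over their own wild types. Gpr39 and Col18a1 are higher in both Smad4 comparisons and lower in Alk1, and Eda2r is higher in all 4.

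BMP pathway genes differed between the deletions. Id1 fell by 2.50 ± 0.11 on the log2 scale after loss of Smad4, stood at -1.49 ± 0.10 after loss of Alk1 and at -0.28 ± 0.12 after loss of Eng, with a difference of -1.01 ± 0.17 from Alk1 (adjusted p = 9.36e-05). Id3 was the reverse, at -0.75 after loss of Smad4 and -1.94 ± 0.13 after loss of Alk1 (difference 1.19 ± 0.18, adjusted p = 3.04e-05). Skil, at 0.88 after loss of Smad4, stood at -0.03 and -0.13, and Lfng, at 2.07, stood at -0.39 and -0.05.

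Several genes rose after loss of Smad4 and were lower after loss of Alk1. Col18a1 stood at 1.97 log2 in Smad4 and -0.91 ± 0.08 in Alk1 mutants (difference 2.88 ± 0.12, adjusted p = 6.99e-16). Gpr39 stood at 3.20 and -1.02 ± 0.29 (difference 4.22 ± 0.37), and Lypd1, Ccdc60, Chad and Pak6 had the same pattern. Gja5 stood at 0.56 and -1.87 ± 0.24, and Plvap at 0.82 and -0.66 ± 0.13. In the other direction, Vegfa, Ndrg1 and Ptgs2, which fell after loss of Smad4, stood at 1.53 ± 0.14, 1.60 ± 0.29 and 1.02 ± 0.37 in Alk1 mutants, each with a called difference.

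Of the p53 targets, Eda2r stood at 4.89 ± 0.18 log2 in Eng mutants and 2.96 ± 0.29 in Alk1 mutants, Phlda3 at 3.35 ± 0.07 and 1.66 ± 0.13, and Ephx1 at 2.14 ± 0.07 and 0.20 ± 0.07. The difference from Alk1 was called for all 3 genes. The difference from Eng was 0.27 ± 0.36, 0.06 ± 0.13 and -0.12 ± 0.10 log2 and was called for none of them. Medians of the list were 0.90 after loss of Smad4, 0.76 after loss of Eng and 0.46 after loss of Alk1. The shared part of the Smad4 and Eng designs includes Cre, tamoxifen dose and days. Wild types are listed with the same dose and days as mutants, so it is Cre activity under that dose that cannot be told apart from the deletions. Interferon genes had a median of 0.69 in Eng and -0.07 in Alk1 mutants. Pericyte markers had medians of -0.91 in Smad4, -0.20 in Alk1 and 0.01 in Eng mutants. The Smad4 median was -0.57 among the uncoded libraries, -1.42 among the coded ones and -0.33 with the neural marker covariate, where no pericyte marker was called. Genes of G2 and mitosis had medians of 0.51, 1.18 and 0.76 in Smad4, Alk1 and Eng mutants, and Ube2c differed from Alk1 by -0.61 ± 0.15 log2 (adjusted p = 0.00454).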

How the data were processed

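RNA of bead-captured brain cells was sequenced from TruSeq RNA v2 libraries, per the labels' protocols. The deposited tables hold 1 normalized signal value per gene and library. Per the labels the values are raw counts, but they are not whole numbers, so they were treated as normalized values and a count test, which the plan allowed for, was not used. The build is mm10 per the submitters' processing notes, while the aligner, counter and scaling method were not given in the sources used here. Columns of the untreated table match a genotype and no single sample, so library numbers are the order of the columns.

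From the values, log2(value + 2) was tested with limma 3.58.1 (R 4.3.3, intensity trend) over genes of at least 20 in at least 5 libraries (3 for IgG), with Benjamini-Hochberg adjustment and a threshold of 0.05. Differences between deletions came from a joint fit of the untreated tables, and the untreated and IgG tables were likewise fitted together. Tables were normalized separately, so levels are compared only within a table. The code was tested on simulated data. Depth was inferred from the commonest low value of each library and is approximate.

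Members and lists were chosen with earlier results of these data known. Named were fixed pathway genes, the 12 largest changes per direction (groups not overlapping, mean of at least 50), the 10 most abundant called genes, up to 5 called members per list and direction and the largest differences between deletions. Genes with a called difference between library codes, the genes with promoter stretches and some further list members were named after their values were seen. Some genes that the naming rule covers are not reported here. Left out were 26 rows with date-like or repeated names, the table of LC10-treated pups, and 3 columns that match no sample described here. Promoter stretches come from the RefSeq table of GRCm38.p6, and gene positions from GENCODE M21. Alternatives covered pseudocount, filter, scaling, covariates, library subsets, a replicate block and other fits.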

Additional observations from a re-analysis of the deposited data

Results flagged for a closer look

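In 18 of 402 groups of 5 libraries, 1 library stood apart from the other 4, by a gap above 0.71 of the group's range. Chance flags about 1 in 20 groups. Mutant 3 stood apart in 6 of them. It was highest for Gdf15 (524.1, next 273.8) and F5 (1959.5, next 1635.8), and lowest for Smad5 (10995.4) and Sesn1 (1979.5). The gene copies Eif3j1 and Eif3j2 held 0 and 1921.8 in it. Wild type 1 stood apart in 4, highest for Bmp6 (390.4), Fmo1 (2062.6) and Smad9 (111), and lowest for Spock2 (175427.9). Wild type 3 was highest for Abcb1b (180.9) and lowest for Acvr2b (1114.7) and Nrp2 (10210.4). The others were Hbb-bt in wild type 4 (2431.9), Sesn1 in wild type 5 (2522.5), Xpc in wild type 2 (1497.5), Kif11 in mutant 2 (2253.0) and Ptprv in mutant 1 (186.7).

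A difference of the genotype effect between groups of libraries was called in 10 of the named genes. Between the libraries with the code L146 and those without, the effect was larger with the code by 1.62 log2 for Angpt2, 2.10 for Egln3, 2.45 for Slc16a3, 1.16 for Igfbp3, 1.03 for Adm, 1.09 for Esm1, 0.70 for Chst1 and 1.35 for Itgb3, with adjusted p of 0.0198 to 0.0381, and for Acta2 it differed by -1.79 (0.0446). With 1 library left out these differences kept their signs and their calls were lost in 3 (Angpt2) to 9 of 10 fits (Acta2, Esm1 and Itgb3). In the coded mutants these genes moved beside the lowest pericyte and neuronal marker levels, and the part of those cells was not tested. Between untreated and IgG-treated pups the effect on 2210418O10Rik differed by -6.29 log2 (limma, adjusted p = 0.0122).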

How the results depend on the processing

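The untreated comparison called 4620 genes. Counted anew over all genes tested, the number was 2155 with the neural marker covariate and 2459 in the 6 libraries without a code. It was 1568 in those 6 with the column number as a replicate block. These counts do not say how many of the 4620 calls were kept. Under the other settings the number was 4129 to 6428, and 3370 (without mutant 4) to 5595 (without mutant 3) with 1 library left out. The 441 called members of the lists became 259 with the neural marker covariate and 254 with the replicate block, and 388 to 481 with 1 library left out. The IgG count of 2480 was 483 to 3075 with 1 library left out and 2451 with the replicate number as a replicate block. Paired analysis had little ground, since same-numbered libraries correlated in their deviations at -0.08, 0.17 and -0.10 (untreated, no code) and 0.06, 0.03 and -0.07 (IgG). The difference from Alk1 (2305) was 2004 to 2585 and that from Eng (1168) 812 to 1793 with 1 library left out. The 1 gene that differed between untreated and IgG pups was 0 with a pseudocount of 10. The difference between codes, an analysis chosen after seeing the data (43), was 14 after division by library sums and 1 to 45 with 1 library left out, with 38 larger and 5 smaller under the code over all libraries but 11 and 34 without mutant 4. Fits on subsets have fewer libraries, the neural marker covariate partly follows genotype, and otherwise the cause was not tested.

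Of 170 called genes named, 118 kept their call under all alternatives that tested them, and none reversed. Of 1271 list medians recomputed, 100 moved by more than 1 SD between replicates. Loss of Smad4 and Cre activity cannot be told apart, the litters are not given, and depth is unknown beyond the inferred fragments.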

Other observations

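44 genes of the untreated table were near 0 in some libraries and above 150 in others. Most were copies of gene families or genes of the sex chromosomes. Eif3j1 and its copy Eif3j2 traded values between libraries. Eif3j1 was at 0 in wild types 1 and 3 and in mutant 3, where Eif3j2 held 1895.9, 1974.4 and 1921.8. Trim12a, a member of a multigene family of antiviral factors, held 344.2, 288.0, 0, 281.2 and 258.8 in the wild types and 0, 2.2, 0, 0 and 0 in the mutants. It was at 0 to 2.4 in all 6 IgG libraries, wild types included, and at 305.3 to 636.0 and 609.3 to 950.6 in the Alk1 and Eng tables. It was chosen after its values were seen. Gh, growth hormone of the pituitary, held 1304.2 in mutant 1 and at most 13 in the other 9 untreated libraries.

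Markers of choroid plexus, of neutrophils and of red cells differed between libraries. Choroid plexus and ependymal markers summed to 144182.7 in wild type 1, 29201.0 to 52666.3 in the other wild types and 3590.2 to 26128.5 in the mutants. Neutrophil markers summed to 1269.9 and 833.4 in wild types 4 and 5, both with the code L146, and to 134.6 to 208.2 in the other 8 libraries. Erythroid markers were 31137.5 to 44833.2 in the wild types and 11509.8 to 18593.5 in the mutants, with no overlap.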
